A study of Mus musculus with 10 samples.

Results

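Sarcolipin, phospholamban and the calcium pumps they act on were followed through 10 libraries of mouse lumbar motor neurons. The set held 9 of the 51912 genes in the count files: Sln (sarcolipin), Pln (phospholamban), the 3 pumps of the endoplasmic reticulum Atp2a1, Atp2a2 and Atp2a3, and the 4 pumps of the plasma membrane Atp2b1, Atp2b2, Atp2b3 and Atp2b4. The genes were chosen by symbol around Sln, which had been picked on its counts by genotype in these same libraries. The genotype values of the members are therefore a description: no p-value is given for them, and where members called by a tool are counted beside the share over all genes, nothing is rested on the count. The deposited tables name 6 of the 9, and Pln, Atp2a1 and Atp2a3 were found in the count files through GENCODE identifiers.

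Each library was made from a pool of about 50 motor neurons of 1 mouse, cut out by laser from frozen lumbar cord sections. In the 5 HSA-NRTN mice neurturin, a GDNF-family growth factor, is made in muscle fibres from a transgene under the human skeletal actin promoter, and the 5 controls were wild-type littermates. Each group held 3 females and 2 males. Age and strain background are not stated in the labels, and only cells with a visible nucleolus and an area over 200 µm2 were taken. The transgene has a muscle promoter, and whether it is also expressed in the captured cells was not tested. In pooled cells, a high level in few neurons and a low level in many cannot be told apart.

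Calcium that enters a neuron's cytosol is moved back into the endoplasmic reticulum by the SERCA pumps, encoded by the Atp2a genes, and out of the cell by the PMCA pumps, encoded by the Atp2b genes. Sarcolipin and phospholamban are small single-span membrane proteins that bind SERCA and lower its calcium transport, and both are best known from skeletal and heart muscle. Motor neurons are known for weak cytosolic calcium buffering, which leaves much of the work to pumps and stores.

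The coding sequences of the pair of regulators are shown because they define the family to which Sln belongs and because its counts differ so much from those of Pln. They were read 5′ to 3′ from GENCODE M21 transcripts on GRCm38, on the plus strand, from chr9:53853473-53853568 for Sln and chr10:53343864-53344022 for Pln. Capitals mark the codons whose amino acid is the same in both proteins when these are aligned.
Sln: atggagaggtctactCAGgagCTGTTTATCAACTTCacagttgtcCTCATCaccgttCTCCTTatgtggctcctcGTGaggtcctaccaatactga
Pln: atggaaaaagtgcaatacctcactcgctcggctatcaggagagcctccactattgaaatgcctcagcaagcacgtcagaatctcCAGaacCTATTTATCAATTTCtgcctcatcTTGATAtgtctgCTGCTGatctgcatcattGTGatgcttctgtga
The Sln reading frame has 96 bases and encodes 31 residues, and that of Pln has 159 bases and encodes 52. Over 29 aligned residues 11 were identical (37.9%), and all the codons in capitals lie in the later part of the Pln reading frame. Among the pumps, SERCA proteins shared 75.8% to 84.5% of aligned residues with each other, PMCA proteins 74.7% to 84.5%, and a SERCA with a PMCA 33.4% to 36.4%.

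Libraries held between 1875971 and 6641695 gene counts, with 14090 to 19675 genes detected. HSA-NRTN replicate 2 had the fewest counts and the lowest median Spearman correlation with the other libraries (0.799), followed by wild-type replicate 1 (0.843), while the other 8 lay between 0.859 and 0.874. All 7 motor neuron markers, among them Chat and Slc5a7, were counted in all 10 libraries. Their summed level was 3265 to 5395 CPM (gene counts normalised to the TMM-scaled size of each library) in HSA-NRTN and 2445 to 4068 CPM in wild-type pools.

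Sln transcripts were counted in all 5 HSA-NRTN libraries and in none of the wild-type libraries. The counts in HSA-NRTN replicates 1 to 5 were 82, 4, 86, 321 and 37, which correspond to 24.3, 2.16, 15.8, 45.7 and 9.12 CPM. The groups did not overlap, and within the HSA-NRTN group the level differed widely between libraries, with replicate 4 at the top and replicate 2 at the bottom. Sln (ENSMUSG00000042045) lies at chr9:53850164-53854560 on GRCm38 and overlaps no other annotated gene, so the missing strand information of these libraries does not bear on it. The mean in HSA-NRTN pools was 19.4 ± 16.8 CPM (SD, n = 5), or 14.7 ± 12.8 CPM per kilobase of exon. A floor of 3 counts over the whole wild-type group stands at 0.130 CPM, and the observed HSA-NRTN mean was 149-fold above it. This bound allows for counting error in the wild-type group only, not for the spread among the HSA-NRTN libraries.

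Single libraries weighed heavily on that bound. HSA-NRTN replicate 4 alone held 60.6% of the 530 Sln counts, and without it the bound was 98.4-fold. It was 182-fold without HSA-NRTN replicate 2, and 148-fold when that library and wild-type replicate 1 were both left out. The 4 counts of HSA-NRTN replicate 2 lay just above the floor of 3 counts for a single library, which is 1.62 CPM at its depth. The floor of single wild-type libraries was 0.516 to 0.850 CPM, below the lowest HSA-NRTN value.

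Because all 5 wild-type libraries were at 0, the same split must appear in each sex and in any subset of animals, and the values by sex and by animal number are given only to show the levels and the depth behind them. In the 3 HSA-NRTN females Sln was at 15.8, 45.7 and 9.12 CPM, a mean 113-fold above the floor of the 3 wild-type females. In the 2 HSA-NRTN males it was at 24.3 and 2.16 CPM, a mean 37.8-fold above the floor of the wild-type males. Animal numbers fall into a lower run, with HSA-NRTN replicates 1 to 3 and wild-type replicate 1, and a higher run with the rest, and the bounds within them were 20.4-fold, against 1 wild-type library, and 171-fold. Whether a run marks a litter or a processing day is not stated in the labels.

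Of the 26070 genes with any count, 20 (0.0767%) were counted in all 5 HSA-NRTN and in no wild-type library, and no gene showed the reverse. Sln had the most counts of the 20, before Sst (somatostatin) with 475. As Sln was chosen on this contrast, its place among them is no finding. Of the 5 members kept by the filter on low counts, 0 separated the groups completely, where 145 of the 11630 genes kept did so (1.25%), 75 with HSA-NRTN higher and 70 lower. Sln, the member that did separate them, had been removed by that filter and is not among these genes.

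**Figure D1:**
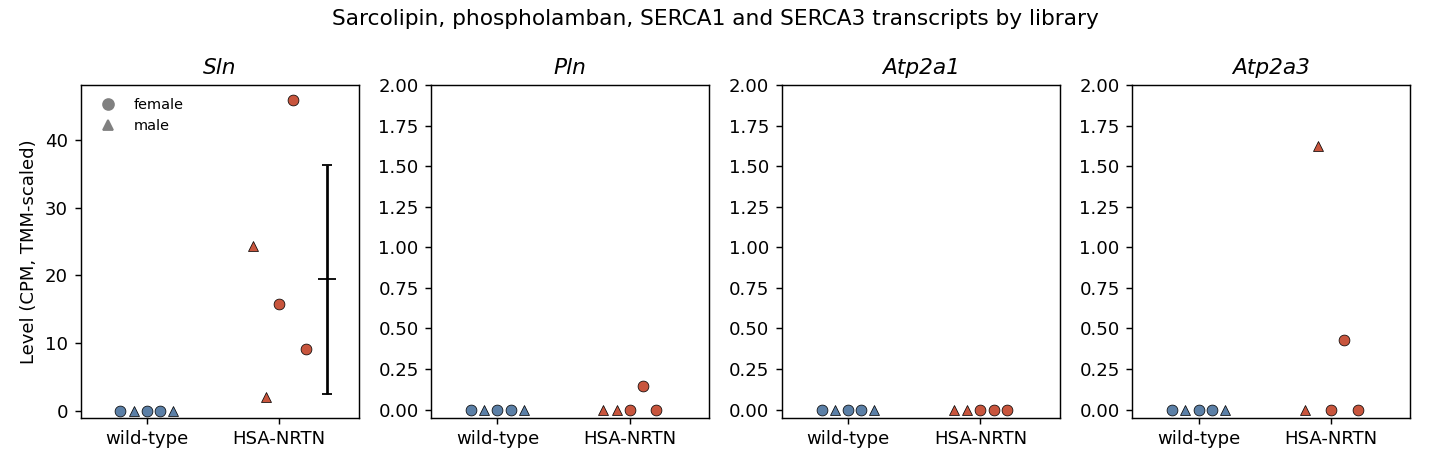
Levels in CPM (linear axes, 1 axis per gene) of Sln, Pln, Atp2a1 and Atp2a3 in each library, with circles for single females and triangles for single males by genotype and, for HSA-NRTN Sln, the mean with its SD over 5 libraries. Sln lay between 2.16 and 45.7 CPM in the HSA-NRTN libraries and at 0 in all wild-type libraries, while Pln, Atp2a1 and Atp2a3 were at 0 in nearly every library.

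Markers of muscle were measured beside Sln because sarcolipin is best known from muscle. Of 18 skeletal muscle markers 13 had any count, and Myh1, Myh2, Myh4, Tnnc2 and Mb were at 0 in all 10 libraries. Acta1, skeletal actin, had at most 1 count in any HSA-NRTN library and 5 in wild-type replicate 3. Tnnc1, Ckm, Tnnt3 and Tnni2 were counted only in HSA-NRTN libraries, with at most 5 counts in any. Tnnt1 and Myl1 were counted only in wild-type libraries, with at most 1. The highest counts in an HSA-NRTN and a wild-type library were 8 and 1 for Mylpf and 7 and 3 for Actn3. They were 30 and 19 for Tnni1, 42 and 45 for Neb, 3 and 4 for Myh7 and 8 and 57 for Ttn. The summed skeletal muscle level was 4.68 to 27.0 CPM (median 7.12) in HSA-NRTN and 2.75 to 16.5 CPM (median 13.1) in wild-type pools, so the groups overlapped. HSA-NRTN replicate 2, with the lowest Sln, had the highest sum, of which Neb alone made 22.7 CPM. HSA-NRTN replicate 4, with the highest Sln, was at 7.84 CPM. By markers with a count, replicate 4 had 8, the most of any library, and replicate 2 had 5.

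Smooth muscle and pericyte markers summed to 79.4 CPM in HSA-NRTN replicate 2, of which Rgs5 made 71.9 CPM. Their sum was 5.42 to 13.7 CPM in the other HSA-NRTN pools and 1.78 to 17.2 CPM in wild-type pools, with Des at 0 throughout. HSA-NRTN replicate 2 also had the highest astrocyte sum, 748 CPM, of which Slc1a2 made 665 CPM. The other 9 libraries lay between 46.4 and 295 CPM. Endothelial markers summed to 5.31 to 13.05 CPM in HSA-NRTN and 1.03 to 10.6 CPM in wild-type pools. Oligodendrocyte sums were 270 to 1419 CPM (median 363) against 201 to 641 CPM (median 411), with the highest sum in HSA-NRTN replicate 2. Microglia sums were 1.48 to 10.8 CPM against 2.18 to 15.0 CPM. Markers of other spinal neurons summed to 43.8 to 249 CPM against 5.16 to 373 CPM. The part of these cells in the Sln counts was not tested.

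Phospholamban, the heart and slow-muscle relative of sarcolipin, was almost absent. Pln (chr10:53337667-53345987) had 1 count in HSA-NRTN replicate 4, or 0.143 CPM, and 0 in the other 9 libraries. Of its 2759 exonic bases 1785 are shared with genes on the other strand, Cep85l and Gm47644. The libraries do not mark strand, and how reads in these shared bases were counted is not stated in the labels, so the value rests most firmly on the 974 bases that are not shared.

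Atp2a1, the SERCA pump of fast-twitch muscle fibres, had 0 counts in all 10 libraries (chr7:126445858-126463108). Atp2a3, the SERCA pump known from blood cells, endothelium and secretory cells, had 3 counts in HSA-NRTN replicate 2 and 3 in replicate 4, or 1.62 and 0.428 CPM, and 0 elsewhere (chr11:72961169-72993044). Neither was detectable in any wild-type library at this depth. Of the 3477 exonic bases of Atp2a1, 763 are shared with Rabep2 on the other strand, so its 0 rests most firmly on the other 2714. Every HSA-NRTN library thus held Sln counts, and none held counts of Atp2a1.

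Atp2a2, which encodes the SERCA pump of heart and slow muscle and of most other cells, was the SERCA gene of these neurons (chr5:122453513-122502225). The HSA-NRTN libraries held 757, 770, 914, 937 and 1198 CPM. The wild-type libraries held 1397, 1275, 830, 952 and 1401 CPM. The groups overlapped, with 2 HSA-NRTN libraries below every wild-type library and 3 wild-type libraries above every HSA-NRTN library. The means were 915 ± 178 and 1171 ± 264 CPM (SD, n = 5 each), a log2 fold change of -0.36 (SE 0.22).

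By sex, the Atp2a2 values are a description, with 2 males and 3 females in each genotype. HSA-NRTN males were at 757 and 770 CPM and wild-type males at 1275 and 1401 CPM, a log2 fold change of -0.82 among males. Both HSA-NRTN males were in the lower run of animal numbers and both wild-type males in the higher run. Genotype and run therefore cannot be told apart among males, which bears on the interaction too. Among females the log2 fold change was -0.04. The interaction of genotype with sex came to -0.75 (SE 0.41), and its adjusted p over all genes was 0.922 by quasi-likelihood in edgeR, so a difference between the sexes was not shown.

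Atp2b1, the widespread PMCA pump, was at 306, 455, 189, 251.1 and 282 CPM in HSA-NRTN replicates 1 to 5 and at 235, 275, 222, 148 and 286 CPM in wild-type replicates 1 to 5 (chr10:98914406-99026143). HSA-NRTN replicate 2 was highest and wild-type replicate 4 lowest, and the other 8 libraries lay between them with both groups mixed. The means were 297 ± 98.7 and 233 ± 54.5 CPM, a log2 fold change of 0.34 (SE 0.26).

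Atp2b2, a fast PMCA pump known from cerebellar neurons and hair cells, was at 641, 385, 497, 510 and 762 CPM in HSA-NRTN replicates and at 701, 678, 582, 523 and 681 CPM in wild-type replicates (chr6:113743831-114042613). The wild-type libraries fell within the HSA-NRTN range. The means were 559 ± 145 and 633 ± 76.9 CPM, with a log2 fold change of -0.18 (SE 0.22).

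Atp2b3, another PMCA pump of the nervous system and on the X chromosome (chrX:73503086-73571005), was the lowest of the pumps detected in every library. HSA-NRTN libraries held 23.7, 28.1, 10.8, 14.0 and 31.1 CPM and wild-type libraries 19.7, 14.7, 7.74, 11.02 and 31.9 CPM, with wide overlap. The means were 21.5 ± 8.82 and 17.03 ± 9.45 CPM, a log2 fold change of 0.33 (SE 0.47).

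Atp2b4, the PMCA pump best known from red blood cells, smooth muscle and sperm, varied most between libraries of the 5 pumps fitted (chr1:133699457-133801041). HSA-NRTN replicates 1 to 5 were at 532, 451, 32.8, 251.97 and 84.8 CPM, and wild-type replicates 1 to 5 at 7.34, 199.9, 30.5, 176 and 71.4 CPM. The highest library was 72.4 times the lowest, and 3 HSA-NRTN libraries exceeded every wild-type value while the others lay among them. HSA-NRTN replicates 1 and 2, the highest, were the males of that group, both in the lower run of animal numbers. Both wild-type males were in the higher run, so genotype and run cannot be told apart among males. The means were 270.4 ± 219 and 97.0 ± 86.5 CPM (SD, n = 5 each), a ratio of 2.79 and a log2 fold change of 1.48 (SE 0.76).

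**Figure D2:**
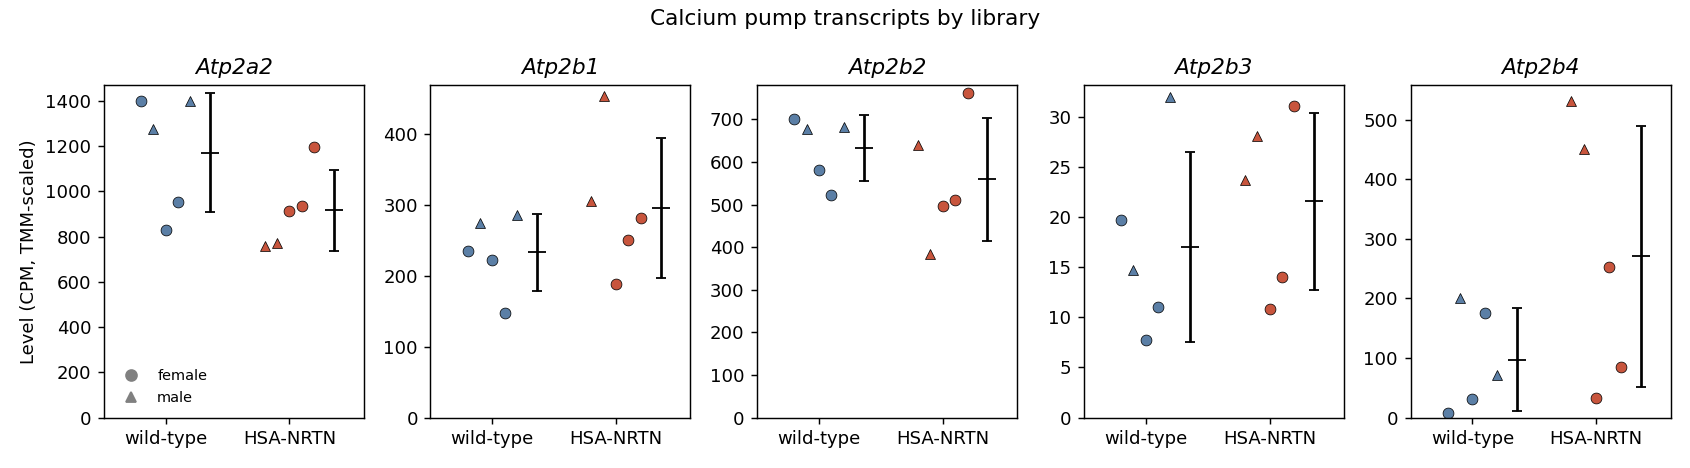
Levels in CPM (linear axes from 0, 1 axis per gene) of the 5 pumps counted in every library, with circles for single females, triangles for single males, and the mean with its SD over 5 libraries of each genotype. Atp2b4 ran from 7.34 to 532 CPM, while Atp2a2 stayed between 757 and 1401 CPM.

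Calls for genotype are listed only beside their background, since the set was selected on this contrast and the counts carry no weight of their own. Among the genes the filter kept, edgeR called 0 of the 5 fitted pumps at an adjusted p under 0.05, against 1 of 11630 genes (0.0086%). DESeq2, which gave adjusted p-values to 6 members, called Sln, against 0.8% of 15741 genes, and edgeR with no filter on low counts called Sln of 8 members, against 0.311% of 26070 genes. The authors' deposited table gives moderated log2 fold changes of 2.58 (SE 0.416) for Sln, 0.64 (SE 0.416) for Atp2b4, 0.30 (SE 0.212) for Atp2b1, 0.28 (SE 0.351) for Atp2b3, -0.17 (SE 0.210) for Atp2b2 and -0.33 (SE 0.213) for Atp2a2. The signs in the authors' deposited table were those of the values above.

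The spread between libraries set the pumps apart from one another. Each animal gave a single pool, so differences between animals cannot be told apart from those of capture and library preparation. The biological coefficient of variation, the spread beyond counting noise fitted by edgeR within genotype, was 0.275 for Atp2a2 and 0.272 for Atp2b2, with a median of 0.527 over all genes fitted. Lower values were fitted for 2.54% of genes than for Atp2a2 and for 2.06% than for Atp2b2. Atp2b1 was at 0.314 (lower in 9.66% of genes), Atp2b3 at 0.532 (50.6%) and Atp2b4 at 0.784 (78.5%). These ranks are over genes of all levels and were not matched for abundance: Atp2a2 stood at percentile 99.1 of mean level, Atp2b2 at 98.1, Atp2b1 at 94.2, Atp2b4 at 91.1 and Atp2b3 at 43.7.

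Per kilobase of exon, the pumps fell into an order, which the choice of genes had not used. Atp2a2 stood at 172 ± 41.3 CPM per kilobase, Atp2b2 at 47.3 ± 9.23, Atp2b1 at 17.4 ± 5.40, Atp2b4 at 15.0 ± 14.8 and Atp2b3 at 4.0 ± 1.85 (SD over 10 libraries). Atp2a2 was above Atp2b2 in 10 of 10 libraries, by 1.85 ± 0.254 on the log2 scale, and Atp2b2 above Atp2b1 in 10 of 10, by 1.47 ± 0.557 (SD, n = 10). Both had an adjusted p of 0.00391 in exact two-sided sign-flip permutation tests over 4 neighbouring pairs, from a raw p of 0.00195, the smallest that 10 libraries allow.

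The lower end of the order was not resolved, and Atp2b1 and Atp2b4 changed places between the genotype means: 19.5 ± 6.48 and 22.1 ± 17.9 CPM per kilobase in HSA-NRTN pools, and 15.3 ± 3.58 and 7.92 ± 7.06 in wild-type pools (SD, n = 5 each). Over all 10 libraries, Atp2b1 lay above Atp2b4 in 6 of 10 libraries, by 1.04 ± 1.80 on the log2 scale, and Atp2b4 above Atp2b3 in 8 of 10, by 1.17 ± 1.89, each with an adjusted p of 0.0977 in the exact permutation test. Lengths matter here, because Atp2b1 has 15218 bases of exon over all its transcripts and 7130 in its longest. With longest transcripts as lengths the order was the same, at 184, 67.2, 37.2, 15.7 and 4.16 CPM per kilobase. Atp2b1 was then above Atp2b4 by 2.07 on the log2 scale (unadjusted exact permutation p = 0.00391, against an unadjusted 0.0977 above). Without wild-type replicate 1, the library with the lowest Atp2b4, Atp2b4 was above Atp2b3 by 1.61 (unadjusted exact permutation p = 0.0117, against an unadjusted 0.0742 over all 10 libraries).

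As shares of the summed PMCA level per kilobase, Atp2b2 held 51.5% ± 16.4 in HSA-NRTN and 65.6% ± 6.36 in wild-type pools (SD over 5 libraries each), with ranges of 29.6% to 69.5% and 59.0% to 73.4%. Atp2b4 held 22.0% ± 15.1 against 10.1% ± 8.94, with ranges of 4.72% to 36.4% and 0.792% to 21.1%. Atp2b1 held 21.7% ± 4.49 against 19.8% ± 3.25, and Atp2b3 4.86% ± 1.42 against 4.47% ± 2.13. The ranges of every pump overlapped between genotypes. Atp2a2 per kilobase was 1.79 ± 0.660 times the summed PMCA level in HSA-NRTN and 2.49 ± 0.373 times in wild-type pools. The PMCA sum was 90.4 ± 23.6 and 77.0 ± 11.2 CPM per kilobase.

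**Figure D3:**
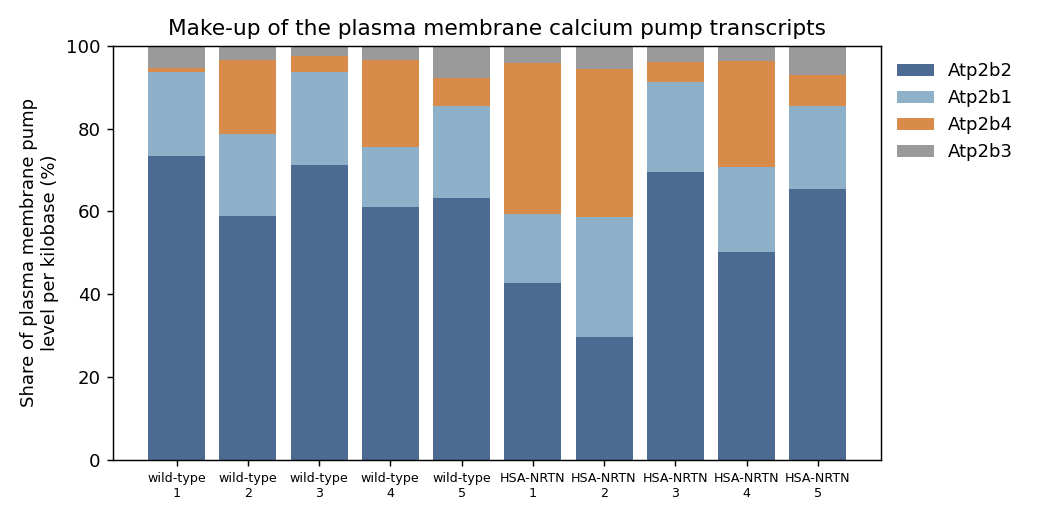
Share in percent of the summed PMCA level per kilobase held by Atp2b1, Atp2b2, Atp2b3 and Atp2b4, as 1 stacked bar per library from 0 to 100%. Atp2b2 was the largest share in all wild-type bars (59.0% to 73.4%), and the Atp2b4 share ran from 0.792% to 36.4% over the 10 libraries.

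Sex, which had no part in choosing the genes, was tested in edgeR with genotype in the model. No pump of the 5 passed an adjusted p of 0.05, against 1 of 11630 genes (0.0086%). An unadjusted p under 0.05 was found for 2 of the 5, and for 1302 of the 11630 genes. When single libraries were left out, the number of members under 0.05 ran from 0 to 2. It was 0 without HSA-NRTN replicate 2, the male with the highest Atp2b1, and 0 without HSA-NRTN replicate 3. Atp2b1 was at 330 ± 83.7 CPM in 4 males and 221 ± 47.2 CPM in 6 females, with males from 275 to 455 CPM and females from 148 to 282 CPM. Within each genotype both males lay above all 3 females. The share of all genes that do so was not counted, so nothing is rested on this. The log2 ratio of Atp2b1 in males to females was 0.57 (SE 0.22), which did not pass (adjusted p = 0.406 by quasi-likelihood).

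Atp2b4 was at 313 ± 214 CPM in males and 97.2 ± 96.9 CPM in females, a log2 ratio of 1.48 (SE 0.67), with an adjusted p of 0.436. With no filter on low counts edgeR called it (adjusted p = 0.000122), where it called 315 of 26070 genes (1.21%). The ratio was 0.67 (SE 0.45, adjusted p = 0.603) for Atp2b3, -0.03 (SE 0.22, adjusted p = 0.975) for Atp2a2 and -0.01 (SE 0.22, adjusted p = 0.994) for Atp2b2. For the genotype by sex interaction edgeR called 0 of the 5 pumps and 0 of 11630 genes (0%), with 598 genes and none of the pumps at an unadjusted p under 0.05. DESeq2 and limma voom were run for sex and interaction too, and neither called a pump in either test.

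Over the 10 libraries, the genes whose log2(CPM + 1) followed Sln most closely were AA986860 (Pearson r = 0.92, Spearman rho = 0.90), Ephb6 (r = 0.92, rho = 0.86) and Zfp85 (r = 0.89, rho = 0.89). AA986860 was at 2.20 to 20.8 CPM in HSA-NRTN and 0 to 0.469 CPM in wild-type pools. For Atp2a2 they were Rbmxl1 (r = 0.95, rho = 0.96), Exoc8 (r = 0.94, rho = 0.93) and Hoxb5 (r = 0.94, rho = 0.90). For Atp2b2 they were Unc45a (r = 0.92, rho = 0.90), Lurap1l (r = 0.92, rho = 0.73) and Trim3 (r = 0.92, rho = 0.87). Because Sln was chosen for being at 0 in every wild-type library, its closest genes largely rank by the same genotype split, and their likeness is no finding. These were the closest of 11630 genes, all pairs share the libraries and their depth, and 10 points leave room for many close matches.

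No other calcium handling gene of the lists passed the test for genotype. Of 61 genes found from 4 lists, 57 had a count and 42 were tested, and edgeR called 0 up and 0 down, with 0 called by DESeq2 or limma voom. An unadjusted p under 0.05 was found for 2 of the 42, and for 562 of all 11630 genes, so the 2 named further on are given as values that did not pass. The log2 fold change was positive in 23 and negative in 19, with a median of 0.05 against -0.01 over all genes tested. Among other peptides that act on SERCA, 1 was testable: 1810037I17Rik (another-regulin) at 57.5 CPM in HSA-NRTN and 54.2 CPM in wild-type pools. Mrln, which encodes the muscle peptide myoregulin, had 70 counts over the HSA-NRTN and 17 over the wild-type group, in 3 libraries of each, and was named after its values were seen.

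In the list of release channels and store proteins of the endoplasmic reticulum, 13 of 22 tested genes leaned higher and 9 lower in HSA-NRTN pools (median log2 fold change 0.06). Stim2, a sensor of calcium in the store, was at 68.4 ± 18.0 CPM in HSA-NRTN and 113 ± 44.6 CPM in wild-type pools, a log2 fold change of -0.72 (SE 0.30), and its adjusted p was 0.951 in edgeR. Among exchangers, Golgi pumps and calmodulins, 3 of 9 were positive and 6 negative (median -0.15). In mitochondrial uptake 6 of 10 were positive and 4 negative (median 0.08). Micu3, a neuronal regulator of the mitochondrial uniporter, was at 384 ± 63.7 and 599.7 ± 184 CPM, a log2 fold change of -0.64 (SE 0.24), and its adjusted p in edgeR was 0.893.

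**Figure D4:**
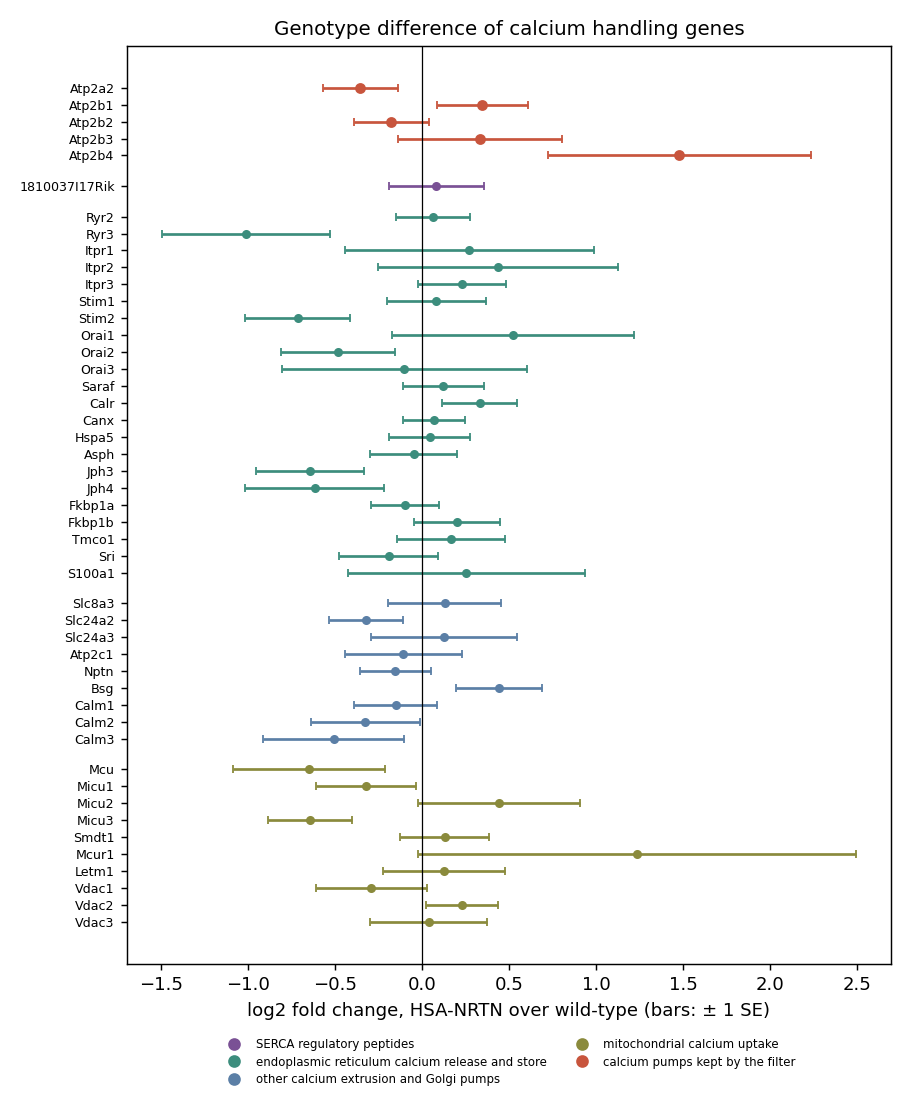
Log2 fold change of HSA-NRTN over wild-type pools with its standard error for the 5 fitted pumps and for the 42 other calcium handling genes tested, grouped by list. Atp2b4 stood highest of the pumps at 1.48 (SE 0.76), Atp2a2 lowest at -0.36 (SE 0.22), and none of the 42 other genes passed an adjusted p of 0.05.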

How the data were processed

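Poly(A) RNA of 10 laser-captured pools was made into Smart-seq2 libraries with Tn5 (per the labels' protocols), a method that marks no strand and carries no molecular identifiers. The submitters' processing notes name STAR 2.5.0a, HTSeq and GRCm38.p6, while the annotation and the settings used for counting are not given here. Files deposited by the authors hold raw counts of 51912 genes, 92 spike-ins and 5 tally entries that name no gene, and the last 2 kinds stayed out of library sizes and tests. The deposited comparison table gives the authors' moderated log2 fold changes from DESeq2 for 18754 features with at least 11 counts, and was used only where named.

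Counts were filtered with filterByExpr by genotype, which left 11630 genes and 5 of the 9 members, scaled by TMM and fitted in R 4.3.3 with the quasi-likelihood test of edgeR 4.0.16. P-values were adjusted over all genes by the Benjamini-Hochberg method, with 0.05 as the threshold. DESeq2 1.42.0 and limma voom (limma 3.58.1) were alternatives, beside other scaling, no filter, leaving out each library, 1 sex only and longest-transcript lengths. Genotype stood alone in its model, sex was tested with genotype, and the interaction with both. CPM are TMM-scaled, lengths are exonic bases of GENCODE M21, which held 51633 of the 51912 identifiers, and levels of 1 gene against the next were compared by exact sign-flip permutation in the same library. A fold against a group at 0 used a floor of 3 counts over that group. Depth of 1875971 to 6641695 counts from about 50 cells limits low genes, and floors cover counting error only. The procedure was also run on simulated data. The outcome is not given here, so the power behind the results without a call is not stated.

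The members and lists were chosen with earlier results of these data known. All 9 members were named; of the lists, called genes or up to 3 of smallest unadjusted p under 0.05; and the 3 genes most correlated with Sln, Atp2a2 and Atp2b2. Mrln, Sst and the genes given beside Atp2b4 were named after their values were seen. Replicate numbers follow record order and pair no animals.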

Additional observations from a re-analysis of the deposited data

Results flagged for a closer look

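In groups of 5 libraries, 13 sets of CPM values were examined for a library standing far from the other 4. In 2 sets 1 library did. Pln was at 0.143 CPM in HSA-NRTN replicate 4, which is 1 count, with the other 4 libraries at 0. Atp2a3 was at 1.62 CPM in HSA-NRTN replicate 2, which is 3 counts, with 0.428 CPM in replicate 4 and 0 in the other 3. The criterion is set to mark about 5% of groups of continuous values by chance. That rate does not apply to counts near 0, where 1 library with a count among libraries at 0 always stands apart, so these 2 marks show only where the few counts fell.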

How the results depend on the processing

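Sln was chosen on the genotype contrast, so calls of members there carry no weight. Their number was 0 as reported, and 1, Sln, with no filter, in DESeq2 and, as chosen after seeing the data, with wild-type replicate 1 and HSA-NRTN replicate 2 left out together. It was 0 to 1 when each library was left out in turn, with Sln called without HSA-NRTN replicate 2. Each of the 5 fitted pumps kept the sign of its genotype log2 fold change under all 19 alternatives, within 0.81 to 1.91 for Atp2b4, -0.82 to -0.04 for Atp2a2, 0.14 to 0.47 for Atp2b1, -0.41 to -0.01 for Atp2b2 and 0.14 to 0.68 for Atp2b3. For sex, 1 pump, Atp2b4, was called with no filter. The log2 ratio of males to females turned positive in limma voom for Atp2a2 (0.011) and Atp2b2 (0.015), and without both libraries named above (0.19 and 0.23). Leaving out single libraries, it ran from -0.15 to 0.065 for Atp2a2 and from -0.13 to 0.16 for Atp2b2. The interaction was -0.25 for Atp2b1 without both libraries, and leaving out single libraries it ran from -0.13 to 0.38 for Atp2b1, -0.85 to 0.22 for Atp2b3 and -0.85 to 2.14 for Atp2b4. The cause of these changes was not tested. Depth limits Pln, Atp2a1 and Atp2a3 to statements on detection.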

Other observations

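Atp2b4 was examined for genes of like pattern after its spread between libraries had been seen. Over the 10 libraries its log2(CPM + 1) was followed most closely by Sox11, a transcription factor of developing and injured neurons (Pearson r = 0.95, Spearman rho = 0.94), Lcn2, which encodes the secreted protein lipocalin-2 (r = 0.92, rho = 0.94), and Procr, which encodes the protein C receptor (r = 0.92, rho = 0.82). Sox11 ran from 6.78 to 45.9 CPM in HSA-NRTN and from 0.918 to 28.9 CPM in wild-type pools, and Lcn2 from 8.98 to 145 CPM and from 5.97 to 61.1 CPM. These are descriptions: all pairs of genes share the libraries and their depth, and those named were the closest of 11630 genes.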
